A study of Mus musculus with 30 samples.

Results

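MPP4 and MPP3 cells, 2 kinds of multipotent progenitor sorted by flow cytometry from mouse bone marrow, were compared in young animals. The comparison used the 3 MPP4 and the 3 MPP3 libraries labelled WTiMOS, T1 and 3 months, which are 6 of the 30 libraries of the series. These 6 were chosen by their labels alone. The series studies Bcl11a, a transcription factor of blood progenitors, in MPP3 of KOiMOS and WTiMOS mice and in MPP4 of WTiMOS mice at 3 and 24 months. WTiMOS was the genotype of both groups, neither carried the KOiMOS label, and no drug is named. T1 and T2 are labels for which the sources used here give no cell surface gate and no state of Bcl11a. Total RNA was turned into cDNA and amplified with a low-input kit, and the deposited values are TPM, a transcript abundance per length in which every library has the same total. The labels do not say whether replicates are separate animals, and the p-values reflect no more than how far these libraries vary, in part perhaps for technical reasons.

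Multipotent progenitors are the stage that follows the stem cell and precedes commitment to a lineage. MPP3 are known for their output of granulocytes and monocytes. MPP4, also called lymphoid-primed progenitors, carry the receptor Flt3 and switch on early lymphoid genes such as Dntt. Both keep the surface proteins Kit and Ly6a and have not yet chosen a lineage, so lineage genes are read in them as priming, at a level well below that of mature cells. In RNA from many cells, a smaller number of cells that express a gene and less RNA per cell cannot be told apart.

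The libraries of each cell type came in a table of their own, so cell type and table cannot be told apart in this comparison. Within a group, libraries correlated at r = 0.984 to 0.992 across genes, and no single library stood apart. Between the groups r was 0.816 to 0.833. The MPP4 libraries of 3 months were closer to MPP4 of 24 months (r = 0.976 to 0.979) and to MPP3 of 24 months (0.948 to 0.956) than to MPP3 of their own age. MPP3 of 3 months had r = 0.791 to 0.804 with MPP3 of 24 months and 0.914 to 0.923 with KOiMOS MPP3 of 3 months. The MPP3 group of 3 months thus stood apart from the other 3 WTiMOS groups of T1 cells. RNA of Y-linked genes summed to 64.2, 76.6 and 78.9 TPM in the 3 MPP3 libraries and was listed at 0 in the 3 MPP4 libraries, while Xist stood at 29.1, 32.7 and 28.3 TPM against 104, 105 and 81.9. Genes of X and Y were therefore left out, and the part of this difference in other genes was not tested. At 24 months Y-linked RNA summed to 0.06, 0.07 and 0.18 TPM in the MPP4 libraries of T1 cells and was listed at 0 in those of MPP3.

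Of 24421 listed genes, 11458 reached 1 TPM in at least 3 of the 6 libraries. By limma, 8895 of them (77.6%) differed at a Benjamini-Hochberg adjusted p under 0.05, 4453 higher in MPP4 (38.9%) and 4442 lower (38.8%). Without rescaling of the libraries the split was 3784 higher and 5096 lower, and the median of all genes moved from 0.0098 to -0.18 on the log2 scale. A difference of at least 2-fold was seen in 5086 genes (44.4%), and in 9048 (79%) the 3 libraries of one group lay wholly above those of the other. Counts of called genes are therefore read against these shares, and the differences by their size and against 2 comparisons that share no library with this one: T2 cells of the same tables, and T1 cells of 24 months from other tables.

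The same contrast in T2 cells called 8936 of 11207 genes (79.7%), 4231 higher and 4705 lower. Without rescaling it was 2270 higher and 7017 lower, with the median over the 11207 genes at log2 -1.06 in place of -0.09, so T2 values are relative to that median. Of the genes called in both T1 and T2, 7376 of 7582 (97.3%) had the same direction, which among genes tested in both is 85.7% of those called in T1 and 83.9% of those called in T2. At 24 months 2490 of 10707 genes (23.3%) were called. Of these 1302 were higher (12.2%), 1188 lower (11.1%) and 426 past 2-fold (3.98%). Without replicate 3 of MPP3 the count at 24 months was 1603 (820 higher and 783 lower), and without replicate 1 of MPP4 853 were higher. The median absolute difference was log2 0.89 at 3 months and 0.21 at 24 months. Of 1937 genes called at both ages, 973 (50.2%) had the same direction, 529 higher (5.02% of the genes tested at both) and 444 lower (4.22%), and 964 had opposite directions (532 without replicate 3 of MPP3 and 571 without replicate 1 of MPP4, both of 24 months). Among genes tested at both ages, the 973 are 11.8% of those called at 3 months and 40.6% of those called at 24 months. Across genes the differences in T1 and T2 cells had r = 0.884 and those of 3 and 24 months r = 0.083 (Spearman rho -0.051), over 10356 genes that share libraries within a comparison and are not independent.

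**Figure D1:**
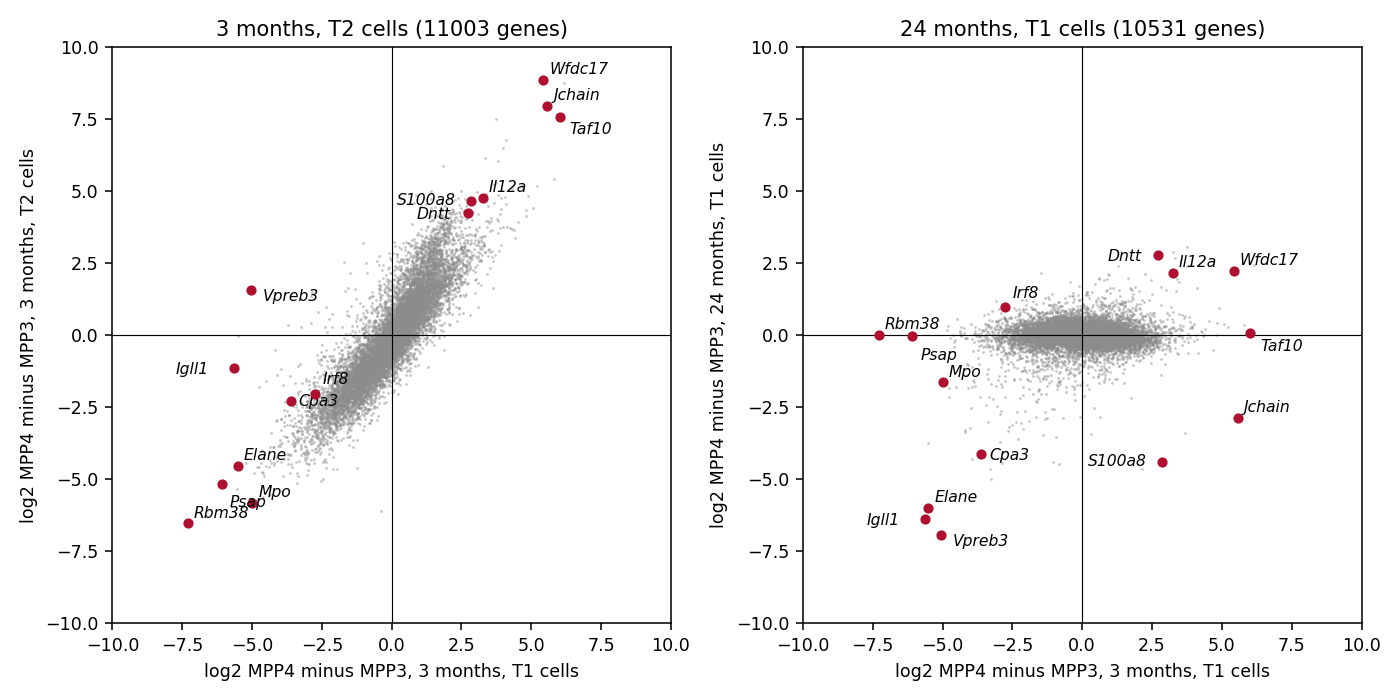
Each point is a gene. The x axis is the log2 difference of MPP4 minus MPP3 in T1 cells at 3 months, and the y axis is the same difference in T2 cells at 3 months (left) or T1 cells at 24 months (right). Genes run along the diagonal on the left and along the horizontal line on the right, where Elane, Igll1, Vpreb3, Cpa3, Dntt, Il12a and Wfdc17 lie far from 0 at both ages.

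Agreement between the ages varied with the size of the difference at 24 months. Among genes called at both ages, 345 of 812 (42.5%) with a log2 difference under 0.5 at 24 months had the direction of 3 months, and 386 of 816 (47.3%) between 0.5 and 1. From 1 to 2 it was 178 of 238 (74.8%), and from 2 upward 64 of 71 (90.1%). Of 215 genes that differed by at least 2-fold at both ages, 184 had the same direction, 54 higher and 130 lower in MPP4.

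The groups were first checked by markers of the sorted cells. Of 8 tested MPP4 markers 6 were higher in MPP4 and 1 was lower, beside 38.9% and 38.8% of all genes. Of 12 MPP3 markers 10 were lower in MPP4, and Gstm1 and Pf4 were higher. At 24 months 4 of the 8 MPP4 markers were higher and 1, Il7r, was lower (log2 -0.85), and all 12 MPP3 markers were lower. Flt3, the receptor for the cytokine Flt3 ligand and the usual gate of MPP4, stood at 175, 186 and 178 TPM in MPP4 and 68.5, 91.1 and 103 in MPP3. All 3 MPP4 libraries lay above all MPP3 libraries (log2 1.27, SE 0.11, adjusted p = 5.07e-07), and at 24 months the difference was larger (log2 2.42). Flt3, Cd48, Cd34, Ly6a and Kit are commonly used to sort these cells, so their differences are no finding, although the labels do not give the gate. Ly6a was higher (log2 2.61) and Cd48 too (log2 2.34, against -0.091 at 24 months). Kit (log2 -0.68) and Cd34 (log2 -0.63) were lower, while Cd34 was higher at 24 months (log2 1.29). Of the 13 gate genes 4 were higher and 6 lower, and Slamf1 and Vwf, which mark stem cells, stayed below the filter.

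Bcl11a itself was read at 43.3, 39.3 and 35.6 TPM in MPP4 and 43.8, 48.5 and 43.5 in MPP3, with no called difference after rescaling (log2 0.017, SE 0.11, adjusted p = 0.888). At 24 months it stood at 22.7, 26.5 and 26.2 TPM in MPP4 and 8.52, 12.9 and 12.1 in MPP3, higher in MPP4 (log2 1.09, SE 0.14, adjusted p = 0.000266). The difference between the ages was itself called (log2 -1.11, adjusted p = 5.28e-05). With a trend on GC content and length removed, Bcl11a was lower in MPP4 at 3 months (log2 -0.46, adjusted p = 0.00131). Among T2 cells of 3 months it had log2 0.87, but -0.26 without rescaling, and the difference between T1 and T2 (log2 -0.93) was 0.068 and not called without rescaling. Of the 25 tested genes for Bcl11a and its corepressors 11 were higher and 9 lower, close to the shares of all genes, with a median of log2 0.26 against 0.0098. Without rescaling it was 7 higher and 10 lower with a median of 0.05, so no direction is given. Kdm1a, a histone demethylase, was higher (log2 3.32) and Mta2, a subunit of the NuRD complex, lower (log2 -2.96), but neither differed at 24 months (log2 -0.077 and 0.0074).

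Lymphoid priming genes were on balance higher in MPP4. Of 30 tested, 21 were higher and 4 lower, with a median of log2 0.98, and at 24 months 15 were higher and 2 lower with a median of 0.44. At both ages 12 were higher and 1, Tcf3, was lower. Dntt, the polymerase that adds bases at the joints of rearranged antigen receptor genes (chr19:41029275-41059525 in GENCODE vM21 on GRCm38), was read at 971, 967 and 985 TPM in MPP4 and 191, 155 and 170.2 in MPP3. No library overlapped, and the size was nearly that of 24 months (log2 2.72, SE 0.083, adjusted p = 6.54e-11; log2 2.80 at 24 months). The difference between the ages was not called (log2 -0.10, adjusted p = 0.444), but without rescaling it was (log2 -0.33, adjusted p = 0.0126). Il12a, a subunit of interleukin 12, stood at 735, 751 and 808 TPM against 101, 89 and 87.2 (log2 3.26, SE 0.084, adjusted p = 2.35e-11). It was higher in MPP4 of 24 months as well (log2 2.16).

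Satb1, a chromatin organiser of lymphoid progenitors, was higher at both ages (log2 2.41 and 0.77), as were the receptor Notch1 (log2 1.31 and 0.71) and the transcription factor Mef2c (log2 0.98 and 1.64). Mef2c lost its call at 3 months once the trend on GC content and length was removed (log2 0.17, adjusted p = 0.179). Ikzf1, a zinc finger factor needed for lymphoid fate, was higher at 3 months (log2 1.36) with a value of -0.033 at 24 months. Tcf12 and Runx2 had the same pattern, with log2 1.98 and 1.70 at 3 months and -0.21 and 0.022 at 24 months. Il7r, the interleukin 7 receptor of committed lymphoid cells, was at 13.2, 12.7 and 13 TPM in MPP4 and 14.1, 13.2 and 14.6 in MPP3 without a called difference, and had log2 -0.43 with that trend removed (adjusted p = 0.00924). At 24 months Il7r was lower in MPP4 (log2 -0.85). Rag1 and Ikzf3 stayed below the filter.

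The gene with the strongest difference of the lymphoid list was Wfdc17, a small secreted protein of the WAP family. It was read at 1035, 1018 and 957 TPM in MPP4 and 24.6, 29.5 and 24 in MPP3 (log2 5.43, SE 0.087, adjusted p = 1.13e-12). Its neighbour Wfdc18 stood at 127, 97.1 and 95.9 TPM against 0.506, 1.89 and 0 (log2 6.17, SE 0.31, adjusted p = 3.7e-08). Both were higher in MPP4 at 24 months too, by log2 2.24 and 2.43. Wfdc17 and Wfdc18 are near copies, and how the authors assigned reads shared between them is not known from the labels, so the division between the 2 is uncertain. The same holds for other near-identical genes named here, such as Vpreb1 and Vpreb2, the globins, the histones and the Gimap and H2 families.

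**Figure D2:**
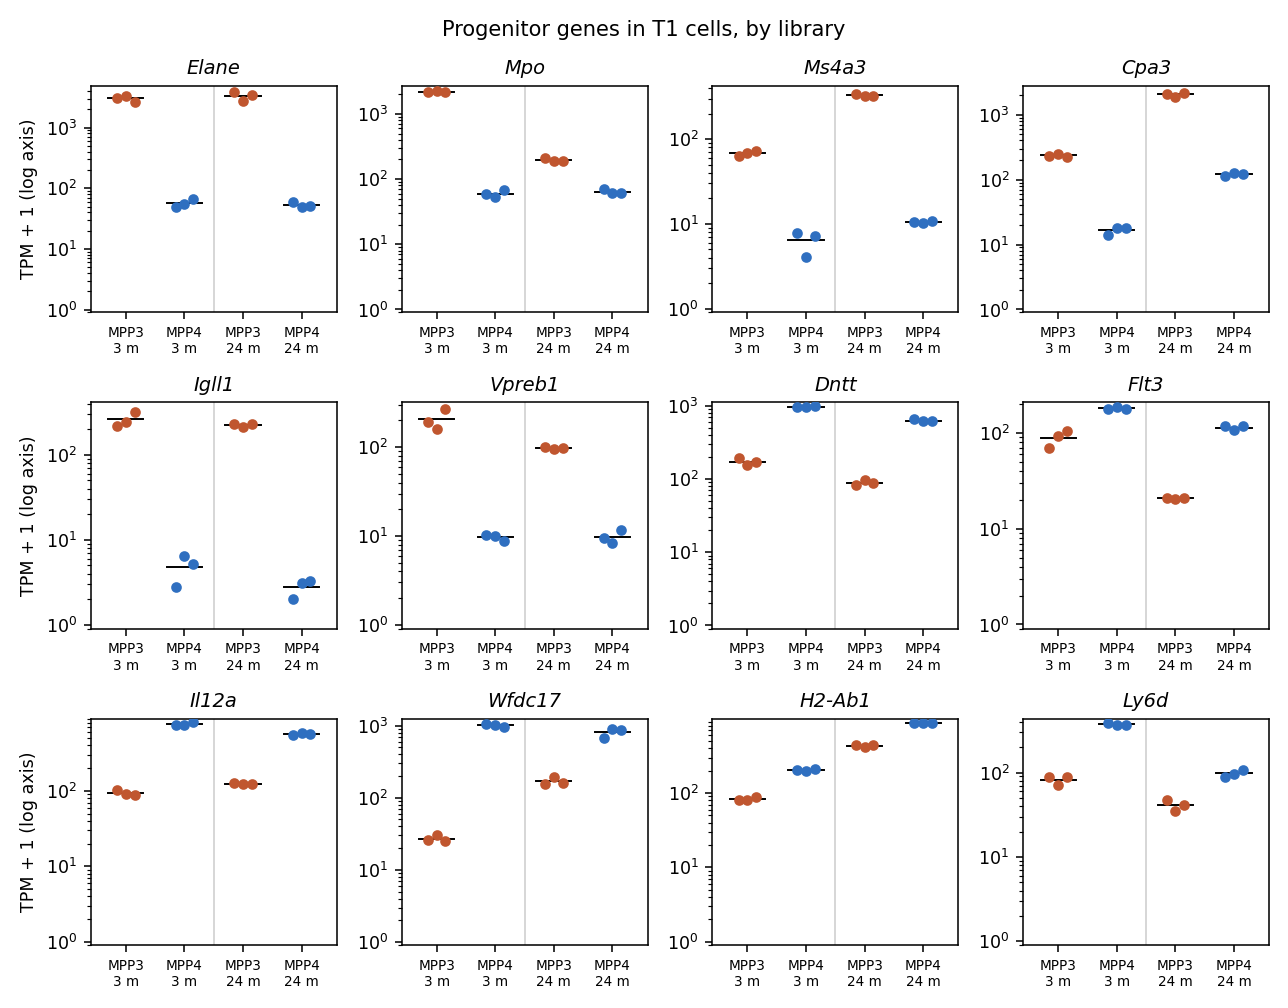
TPM plus 1 on a log axis for 12 genes in each T1 library, MPP3 in orange and MPP4 in blue, with the mean of each group as a line. Elane, Mpo, Ms4a3, Cpa3, Igll1 and Vpreb1 were lower in MPP4 at both ages, and Dntt, Flt3, Il12a, Wfdc17, H2-Ab1 and Ly6d were higher.

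B lineage genes ran against the lymphoid priming list. Of 17 tested, 12 were lower in MPP4 and 5 higher, with a median of log2 -2.74, the lowest of all lists. At 24 months 10 of 15 were lower and 3 higher, and 9 were lower at both ages. Igll1 and Vpreb1, which form the surrogate light chain of the pre-B cell receptor, led the list. Igll1 stood at 1.82, 5.49 and 4.14 TPM in MPP4 and 219, 243 and 320.1 in MPP3 (log2 -5.63, SE 0.29, adjusted p = 2.26e-07), and at 1, 2.15 and 2.29 against 231, 213 and 229.8 at 24 months. Vpreb1 stood at 9.33, 8.89 and 7.74 TPM in MPP4 and 193, 161 and 268 in MPP3 (log2 -4.19, SE 0.16, adjusted p = 2.4e-10). In each, every MPP3 library lay above every MPP4 library. Cd79a, the signalling chain of the B cell receptor, stood at 1.49, 1.41 and 2.07 TPM against 133, 119 and 157 (log2 -5.51, SE 0.15, adjusted p = 3.58e-11).

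Ebf1 and Pax5, factors of the B cell programme, went the same way. Ebf1 was read at 0.767, 0.759 and 0.551 TPM in MPP4 and 14.2, 16.7 and 24.4 in MPP3 (log2 -3.34; -2.14 at 24 months). Pax5, which fixes B cell identity, was listed at 0 in the 3 MPP4 libraries and at 2.34, 16 and 5.53 TPM in MPP3, and it was not tested at 24 months. The exceptions, called higher at 3 months, were 5 genes. Ly6d, a surface protein of early lymphoid progenitors, was higher at both ages (log2 2.41 and 1.22). So were Cd72 (log2 0.80 and 1.07) and Cd74 (log2 0.46 and 1.77), although the call of Cd74 at 3 months ended without rescaling. Bach2 had log2 0.75 at 3 months and 0.27, not called, at 24 months. The last was Jchain, which links antibody molecules. Jchain stood at 67.5, 65.6 and 62.6 TPM in MPP4 and 0, 2.42 and 0.0271 in MPP3, but at 0.821, 0.8 and 1.29 and 14.5, 11.9 and 13.3 at 24 months, with its direction turned.

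This B lineage difference was a feature of the T1 libraries. In T2 cells of the same tables the list had 14 tested genes, of which 5 were higher and 4 lower (beside 37.8% and 42% of all genes), with a median of log2 0.37. Cd79a had log2 -0.033 there (-1.06 and called lower without rescaling, adjusted p = 0.00308), and its difference between T1 and T2 was log2 -5.48 (SE 0.38, adjusted p = 9e-09). Vpreb3, which assists assembly of the receptor, had log2 1.59 in T2 cells (-0.28 and not called with the trend on GC content and length removed) and -5.04 in T1 cells (difference -6.60, adjusted p = 6.9e-10). For Igll1 the difference between T1 and T2 was log2 -4.52 (adjusted p = 3.51e-07), for Vpreb1 -3.75 (adjusted p = 9.49e-09) and for Ebf1 -2.16 (adjusted p = 1.88e-05). Summed over the list, TPM ran from 733 to 768 in MPP4 and from 1131 to 1419 in MPP3 of T1 cells at 3 months. In T1 cells of 24 months the ranges overlapped, at 795.8 to 842.5 in MPP4 and 798.2 to 990.6 in MPP3. These sums also hold the members that were higher in MPP4. Bone marrow also holds committed B cell precursors, for which these genes are markers, and their part in the MPP3 libraries was not tested.

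Genes of MHC class II, which present antigen and are low in most progenitors, were higher in MPP4. Of 9 tested 7 were higher and 1, H2-DMb1, was lower (5 and 2 without rescaling), and at 24 months 9 of 9 were higher. H2-Ab1 stood at 199.8, 199 and 212 TPM in MPP4 and 79.3, 78.8 and 86.9 in MPP3 (log2 1.52, SE 0.077, adjusted p = 2.75e-09). H2-Aa and H2-Eb1 differed by log2 1.29 and 1.48, and the invariant chain Cd74 by 0.46 (0.24 and not called without rescaling), against 0.99, 0.82 and 1.77 at 24 months. Dendritic cell genes had no common direction, with 9 of 19 higher, 5 lower and a median of log2 0.33 that turned to -0.22 once a trend on GC content and length was removed. Cox6a2, a muscle form of a cytochrome oxidase subunit also read in plasmacytoid dendritic cells, was at 130.0, 128 and 135 TPM against 9.5, 12.2 and 9.76 (log2 3.74; 3.07 at 24 months). Irf8, a factor of dendritic cells and monocytes, was lower at 3 months (log2 -2.76) and higher at 24 months (log2 0.98).

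T, NK and innate lymphoid genes gave 3 of 17 higher and 9 lower at 3 months. Tcf7, an early T cell factor, was lower at both ages (log2 -3.84 and -1.75), and so was the protease Gzmb (log2 -1.28 and -2.87). Klrd1, a receptor of natural killer cells, was higher at both (log2 3.47 and 1.85), although its call at 3 months ended with the trend on GC content and length removed (log2 1.79, adjusted p = 0.0757). Cd3e, Cd3d and Cd3g, which define mature T cells, stayed below the filter.

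Primary granule genes of the neutrophil lineage were lower in MPP4. Elane, the neutrophil elastase (chr10:79886247-79888215), was read at 48.2, 54.8 and 65.5 TPM in MPP4 and 3097, 3262 and 2673 in MPP3, with no overlap (log2 -5.51, SE 0.11, adjusted p = 1.16e-11). At 24 months the values were 57.4, 48.4 and 50.2 and 3900.1, 2694 and 3425, a difference of log2 -5.99. Mpo, myeloperoxidase, stood at 57.8, 52.1 and 66.5 TPM against 2183, 2231 and 2156 (log2 -4.98, SE 0.085, adjusted p = 1.62e-12), and at 69.6, 59.1 and 60.7 against 211, 186 and 187 at 24 months. MPP4 had nearly the same Mpo level at both ages, and the MPP3 libraries of 3 months stood far above those of 24 months. Of the other granule proteases Prtn3 was lower by log2 -2.10 and Ctsg by -1.61 at 3 months, and by -1.19 and -1.42 at 24 months.

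Around the start of these granule genes the letters GAGGAAG, a form of the site read by the myeloid factor PU.1, were looked for on both strands of the 250 bases before the start in RefSeq on GRCm38.p6. They were in 5 of the 9 promoters at hand, out of 12 neutrophil genes lower at both ages, and in 10.6% of 32851 promoters. Those 5 were Elane, Mpo, Prtn3, Ctsg and Csf3r. The letters CCCNNGGG, a form of the EBF site, were in 2 of the 9 (11.8% of all promoters), and TTGCNNAA, a form of the C/EBP site, in 1 (9.56%). No match overlapped one of another kind in these 9. Of 8 promoters of B lineage genes lower at both ages, CCCNNGGG was in 1 (Igll1), TTGCNNAA in 1 (Pou2af1) and GAGGAAG in 2 (Vpreb1 and Vpreb2). The match in Elane, Mpo and Ctsg is shown to let a reader compare the bases around it, with the 7 letters in capitals, 12 bases on each side and the strand of the gene. Elane is at chr10:79886215-79886245, Mpo at chr11:87793548-87793578, both on the plus strand, and Ctsg at chr14:56102772-56102802 on the minus strand.
Elane: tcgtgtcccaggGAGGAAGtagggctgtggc
Mpo: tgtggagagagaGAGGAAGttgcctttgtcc
Ctsg: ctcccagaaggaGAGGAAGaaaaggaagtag
A match is a run of letters and not a measured binding site. The match began 85 bases before the start in Elane, 224 in Mpo and 216 in Ctsg. Mpo had another match at 247 bases.

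Taken as a list, neutrophil genes were mixed at 3 months, with 14 of 29 lower, 9 higher and a median of log2 -0.32, whereas at 24 months 22 were lower and 2 higher with a median of -1.21. Lower at both ages were 12, and 9 changed direction. Among the 12, Ms4a3, a mark of granulocyte and monocyte progenitors, was at 6.86, 3.1 and 6.21 TPM in MPP4 and 61.9, 67.1 and 72.1 in MPP3 (log2 -3.26, SE 0.21, adjusted p = 4.08e-08). Cebpe, which drives granule formation, had log2 -3.99 and -2.51 at 3 and 24 months. Hp, haptoglobin, had log2 -4.20 and -3.29, and Igsf6 -4.00 and -3.23. Genes of later neutrophil stages in the list had no common direction at 3 months. Mmp8, a collagenase of neutrophil granules, and Padi4, which modifies histones, were lower (log2 -2.62 and -1.997). S100a8, which binds calcium and is abundant in neutrophils, stood at 294, 265 and 229.6 TPM in MPP4 and 39.1, 97.1 and 18.4 in MPP3, where the libraries were spread widely (log2 2.84, SE 0.67, adjusted p = 0.0157). At 24 months it was at 88.2, 101 and 88.8 against 1846, 2150.2 and 1882, log2 -4.41. Its partner S100a9 had log2 3.67 and -3.41. Both calls at 3 months ended without replicate 1 of MPP3, 1 of MPP4 or 2 of MPP4 (adjusted p from 0.054 to 0.0565) and with the trend on GC content and length removed (log2 1.28 for S100a8 and 2.15 for S100a9).

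Monocyte genes were lower in 14 of 25 and higher in 6, with a median of log2 -0.66, and 6 were lower at both ages. In T2 cells of 3 months the list did not keep this direction. There 11 of 23 were higher and 9 lower (beside 37.8% and 42% of all genes), with a median of log2 0.35. Ly6c2, a surface mark of monocytes and their precursors, stood at 165, 169.5 and 162 TPM in MPP4 and 1532, 1539.7 and 1412 in MPP3 (log2 -2.95, SE 0.065, adjusted p = 7.72e-12; log2 -3.70 at 24 months). F13a1, a clotting factor subunit of monocytes, had log2 -3.93 and -1.57, and the chemokine receptor Ccr2 -2.78 and -1.23. Csf1r, the receptor for macrophage growth factor, was lower at 3 months (log2 -2.53), with a value of -0.17 at 24 months that was not called. Spi1, which encodes PU.1, stood at 79.9, 91.1 and 105 TPM in MPP4 and 476, 424 and 400.0 in MPP3 (log2 -2.01), and was higher in MPP4 at 24 months (log2 1.06). That later call ended without replicate 3 of MPP3, 1 of MPP4 or 3 of MPP4 (adjusted p from 0.0565 to 0.0999).

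Basophil and mast cell genes were lower at both ages by almost the same median. Of 16 tested 11 were lower and 4 higher (median log2 -1.16), and at 24 months 11 were lower and 2 higher (median -1.19), with 9 lower at both. Cpa3, a carboxypeptidase of mast cell granules, was at 13.1, 17.1 and 17 TPM in MPP4 and 232, 248 and 223 in MPP3 (log2 -3.61, SE 0.11, adjusted p = 7.43e-11). At 24 months it stood at 113, 123 and 119.6 against 2070.5, 1889.6 and 2151, so both groups were higher there and the difference was alike in size (log2 -4.12). Gata2, a factor of mast cell, stem cell and megakaryocyte fate, had log2 -2.05 and -1.19, and Hdc, which makes histamine, -3.36 and -1.16. The chemokines Ccl3 and Ccl4, held in the same list, were higher. Ccl3 stood at 1682, 1653 and 1687 TPM against 123, 108 and 107 (log2 4.10; 1.65 at 24 months).

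Megakaryocyte genes were lower in 10 of 17 and higher in 6, with 4 lower at both ages, among them Itga2b (log2 -3.37 and -1.52) and the thrombin receptor F2r (log2 -1.52 and -1.17). Pf4, a platelet chemokine, was higher at 3 months (log2 1.74; 0.52 and not called with the trend on GC content and length removed) and lower at 24 (log2 -2.17). Erythroid genes gave 8 of 20 higher and 7 lower at 3 months, against 1 higher and 10 lower at 24 months. Gfi1b, a factor of red cells and platelets (log2 -1.60 and -1.10), was lower at both ages.

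**Figure D3:**
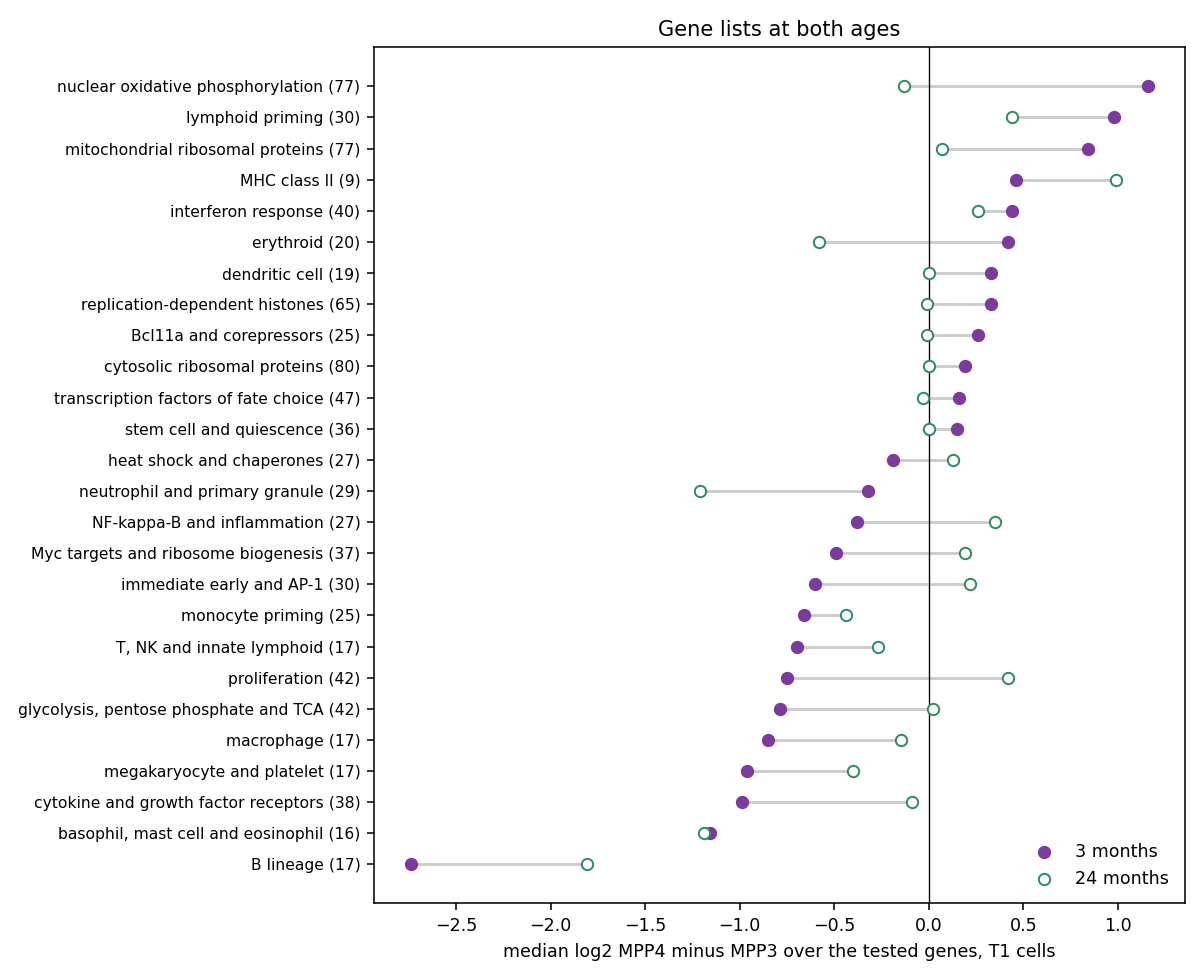
Median log2 difference of MPP4 minus MPP3 in T1 cells for each gene list, at 3 months (filled) and 24 months (open), with the number of genes tested at 3 months in brackets. B lineage and basophil lists lie left of 0 at both ages, lymphoid priming and MHC class II right of 0 at both, and oxidative phosphorylation, proliferation and erythroid lists lie on opposite sides.

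Among 47 transcription factors of fate choice 22 were higher and 17 lower at 3 months (20 and 20 without rescaling), and 5 were higher and 6 lower at both ages. Higher at both were Satb1, Notch1, Mef2c, Tcf4 and Hoxa9, the last a homeobox factor of progenitors (97.9, 94.9 and 98.9 TPM in MPP4 and 32.1, 33.1 and 34.4 in MPP3; log2 1.74 and 1.60). Lower at both were Cebpa, Cebpe, Gata2, Gfi1b, Ebf1 and Tcf3. With the trend on GC content and length removed, the 3-month values of Cebpa (log2 -0.082) and Tcf3 (0.23) were not called, and Tcf4 turned to -0.62. The 3-month call of Tcf4 (log2 0.33) also ended without rescaling (adjusted p = 0.36), with all 30 libraries, with each table giving its own spread, and without replicate 2 of MPP3, 1 of MPP4 or 2 of MPP4. At 24 months the calls of Cebpa and Tcf3 ended without any 1 of 4 and of 5 libraries in turn, up to an adjusted p of 0.119 and 0.123. Of 36 stem cell and quiescence genes 16 were higher and 11 lower, with a median of log2 0.15 that was -0.05 without rescaling, so no direction is given.

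Of 38 receptors of cytokines and growth factors 24 were lower in MPP4 and 10 higher, with a median of log2 -0.99, against 12 lower, 9 higher and a median of -0.09 at 24 months. At both ages Il1r1, the interleukin 1 receptor, was higher (31, 25.9 and 23.2 TPM in MPP4 against 3.57, 4.23 and 2.55 in MPP3; log2 2.83 and 1.66), and so was Il18r1 (log2 1.52 and 1.17). Csf2rb, the shared beta chain of the interleukin 3, interleukin 5 and GM-CSF receptors, was lower at both (log2 -0.98 and -0.88). Il6ra, the interleukin 6 receptor, was much lower at 3 months (log2 -3.87) with 0.044 at 24 months.

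Programmes shared by all cell types also differed at 3 months, and mostly not as at 24 months. Of 77 nuclear genes of oxidative phosphorylation 62 were higher in MPP4 and 10 lower (median log2 1.16), against 10 higher and 26 lower at 24 months (median -0.13), and 29 changed direction. Their TPM summed to between 49595 and 51941 in MPP4 and between 28033 and 28598 in MPP3 of 3 months, and to 58221 or more in every 24-month library of both cell types. Mitochondrial ribosomal proteins gave 59 of 77 higher and 8 lower (median log2 0.84; 0.07 at 24 months). Sugar metabolism went the other way, with 26 of 42 genes of glycolysis, the pentose phosphate path and the TCA cycle lower and 8 higher (median log2 -0.79; 0.02 at 24 months). Pkm, the last enzyme of glycolysis, had log2 -2.67 and 0.16, while Gapdh had 0.10 and 0.42, neither called. Gapdh was called at 3 months with the trend on GC content and length removed (log2 0.88, adjusted p = 8.96e-07), and at 24 months with the replicate number as a block (log2 0.42, adjusted p = 0.00166). Cytosolic ribosomal proteins had a median of log2 0.19, which was -0.03 without rescaling and -0.31 with the trend on GC content and length removed. In T2 cells of 3 months, after rescaling, 76 of 80 were higher and 3 lower, with a median of log2 1.87.

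Proliferation genes were lower in 25 of 42 and higher in 13 at 3 months (median log2 -0.75), against 26 higher and 1 lower at 24 months (median 0.42). Plk1, a kinase of mitosis, was lower at 3 months (log2 -2.90) and higher at 24 (log2 0.58). Birc5, Cdk1 and Ube2c, which also act in mitosis, were higher at both, with log2 1.01, 0.57 and 0.98 at 3 months. The replication helicase genes Mcm2 to Mcm7 were lower at 3 months (from log2 -1.95 for Mcm7 to -0.73 for Mcm4), and by limma 0 of these 6 were called at 24 months (2 at an unadjusted p under 0.05, Mcm2 and Mcm7, both with values above 0). Mcm2 and Mcm7 were called at 24 months without rescaling (adjusted p = 0.0364 and 0.0401), Mcm7 with the replicate block (0.0435) and Mcm2 without replicate 1 of MPP3 (0.047). Myc targets gave 22 of 37 lower and 14 higher, with 7 higher and 0 lower at 24 months by limma (0 lower also at an unadjusted p under 0.05).

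Immediate early genes, which respond within minutes to handling or signals, were lower in 17 of 30 and higher in 13. Jun stood at 71, 79.1 and 78.3 TPM in MPP4 and 1441, 1338 and 1362 in MPP3 (log2 -3.95), and Junb differed by log2 -3.08. Dusp2, a phosphatase of the same response, was higher (269.6, 241 and 233 TPM against 9.58, 8.36 and 7.95; log2 4.90), also at 24 months (log2 0.96). Of 27 genes of the NF-kappa-B response 14 were lower and 11 higher, and of 40 interferon response genes 25 were higher and 10 lower (median log2 0.44; 0.26 at 24 months). Without rescaling 16 of the interferon response genes were higher and 11 lower, with a median of 0.25. Ifi44, Rtp4 and Xaf1, induced by interferon, were higher at both ages, by log2 1.72, 1.81 and 1.82 at 3 months and 0.86, 0.71 and 0.41 at 24 months. B2m, the light chain of MHC class I and the most abundant of them, had log2 2.21 and -0.055. Heat shock genes gave 14 of 27 lower and 7 higher, and replication-dependent histones 29 of 65 higher and 9 lower, a balance that turned to 16 higher and 20 lower with the trend on GC content and length removed.

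Most genes with the largest differences at 3 months had little difference at 24 months, and a smaller part kept their direction. Others did neither, such as Jchain (log2 5.58 at 3 months and -2.87 at 24 months). Of 303 genes called by at least 8-fold, 101 were higher and 202 lower in MPP4. Of the 269 also tested at 24 months, 198 (73.6%) differed by less than 1.5-fold there, and 45 were called in the same direction by at least 2-fold, 9 higher and 36 lower. Among the 15 genes that were highest in MPP4 by the naming rule, 2 (Wfdc18 and Wfdc17) were higher by at least 2-fold at 24 months too, and 11 differed by less than 1.5-fold. Among the 15 lowest, 7 (among them Igll1, Cd79a, Elane, Vpreb3, Mpo and Cd177) were lower by at least 2-fold at 24 months, 4 differed by less than 1.5-fold, and 4 were not tested there.

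Psap and Rbm38 were lower in MPP4 at 3 months and level at 24 months. Psap, the precursor of lysosomal saposins (chr10:60277627-60302597), was at 9.14, 9.06 and 9.17 TPM in MPP4 and 764, 820.2 and 788 in MPP3 (log2 -6.08, SE 0.079, adjusted p = 2.55e-13). At 24 months MPP4 had 6.22, 5.53 and 5.92 TPM and MPP3 5.31, 5.54 and 7.07, and KOiMOS MPP3 of 3 months had 373 ± 12.2 TPM (SD, n = 3). The 24-month libraries of both cell types were thus near the MPP4 level. Rbm38, an RNA-binding protein of the p53 response, was at 2.26, 2.59 and 3.13 TPM against 704, 640.5 and 615 (log2 -7.29, SE 0.12, adjusted p = 1.13e-12), with 2.99 ± 0.918 in MPP3 of 24 months and 411 ± 10.7 in KOiMOS MPP3 (SD, n = 3 each). Lyl1, a basic helix-loop-helix factor of stem cells, was at 15, 12.3 and 13 TPM against 349, 313 and 342, and at 10.3 ± 1.28 in MPP3 of 24 months (SD, n = 3).

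Among genes higher in MPP4, Taf10, a subunit of the general factor TFIID, was at 169, 164 and 172 TPM against 1.45, 3.2 and 1.5 in MPP3 (log2 6.02, SE 0.18, adjusted p = 5.86e-11). MPP3 of 24 months had 173, 142 and 146 TPM, and KOiMOS MPP3 of 3 months 1.33 ± 0.271 (SD, n = 3). Ppp2ca, the catalytic subunit of a major phosphatase, was at 438, 426 and 449.6 TPM against 26.6, 22.3 and 22.1, with 315 ± 17 in MPP3 of 24 months. Cebpb, a factor of emergency granulocyte production, was at 32.4, 32.1 and 41.3 TPM against 0.0321, 0.109 and 0, with 14.6 ± 1.52 in MPP3 of 24 months and 0.129 ± 0.0588 in KOiMOS MPP3 of 3 months. For these 6 genes both MPP3 groups of 3 months lay on one side and both 24-month groups with MPP4 of 3 months on the other. Nsmce4a, Otulin, Alyref, Crls1, Btg3, Yrdc, Srsf9 and Jdp2 completed the highest genes with under 1.5-fold at 24 months, with log2 differences from 4.32 for Jdp2 to 5.80 for Nsmce4a. Sf3a2 and Rab5b completed the lowest, with -4.83 and -4.74. Lag3, Ddit4, Mfsd12 and Man2b2, with log2 -5.53, -5.20, -4.92 and -4.69, were below the filter at 24 months.

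**Figure D4:**
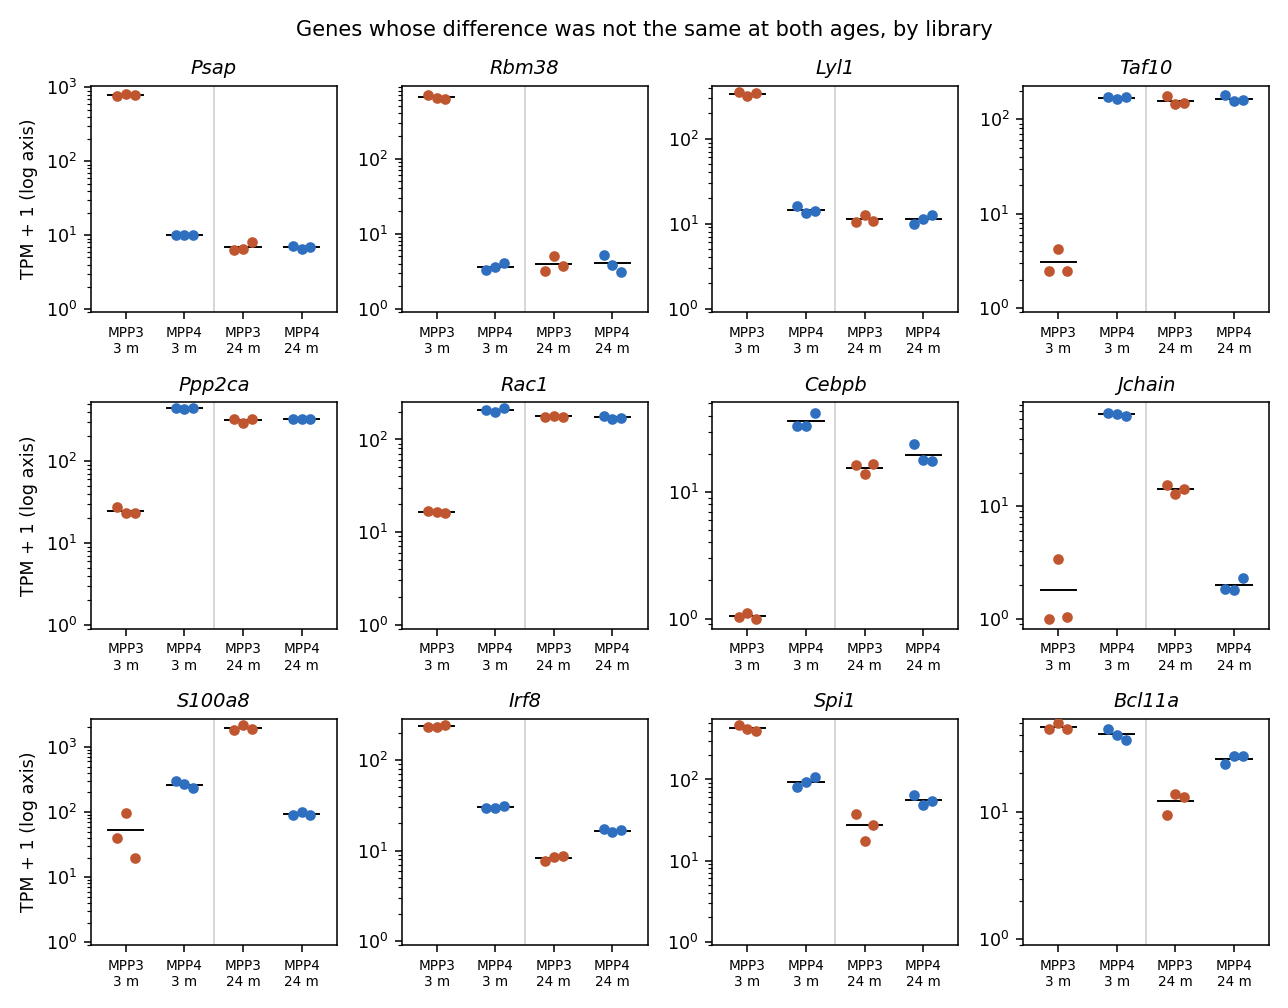
TPM plus 1 on a log axis for 12 genes in each T1 library, MPP3 in orange and MPP4 in blue, with the mean of each group as a line. For Psap, Rbm38, Lyl1, Taf10, Ppp2ca, Rac1 and Cebpb the MPP3 libraries of 3 months stand alone, Jchain, S100a8, Irf8 and Spi1 change direction between the ages, and Bcl11a is lowest in MPP3 of 24 months.

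The difference of MPP4 and MPP3 itself differed between the ages for 8147 genes (71.1%), 3937 with a larger and 4210 with a smaller value at 3 months (3388 and 4881 without rescaling). Y-linked RNA set the cell types apart at 3 months but not at 24 months. Its part in the difference between the ages was not tested. Genes with the smallest adjusted p were Psap (log2 -6.04, SE 0.15), Nsmce4a, Ccl4, Ppp2ca, Ost4 and Rac1. Ccl4 was at 3548, 3425 and 3381 TPM in MPP4 and 247, 228 and 282 in MPP3 of 3 months, and at 4272, 4382 and 4351 and 3309, 3213 and 3165 at 24 months. Rac1, a small GTPase of the cytoskeleton, was at 206, 195 and 220.2 TPM against 15.8, 15.7 and 15, and at 180.2, 166 and 169 against 175, 179.9 and 174 at 24 months. In Ccl4 and Rac1 alike the MPP3 libraries of 3 months were the low ones. Of the 31 genes that differed by at least 2-fold in opposite directions, 16 were higher in MPP4 at 3 months and 15 lower. They held Jchain, S100a8, S100a9, Lcn2, Wfdc21 and Pf4 among the first and Spi1, Irf7, Ltb, Nfatc1 and Trf among the second, named here after their values were seen. The 3-month call of Lcn2 ended with a pseudocount of 0.1 (log2 2.68, adjusted p = 0.118 by limma).

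Composition of transcripts moved with the difference. In 5 bins of 11006 genes by GC content, from lowest to highest, the median difference at 3 months was log2 0.62, 0.26, -0.07, -0.51 and -0.71 in T1 cells and 0.76, 0.17, -0.27, -0.81 and -0.99 in T2 cells. At 24 months it was -0.05, -0.01, 0.01, 0.03 and 0.05. With a trend on GC content and length removed, 8276 genes were called at 3 months. The median of oxidative phosphorylation genes then fell from log2 1.16 to 0.58, that of mitochondrial ribosomal proteins from 0.84 to 0.40, and that of interferon response genes from 0.44 to 0.34. Cytokine receptors moved from -0.99 to -0.56, proliferation genes from -0.75 to -0.49, and neutrophil genes from -0.32 to -0.49, and of 25 monocyte genes 17 were lower in place of 14. The B lineage median was -3.19, that of basophil and mast cell genes -1.06 and that of lymphoid priming genes 0.79, each on its side of 0.

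**Figure D5:**
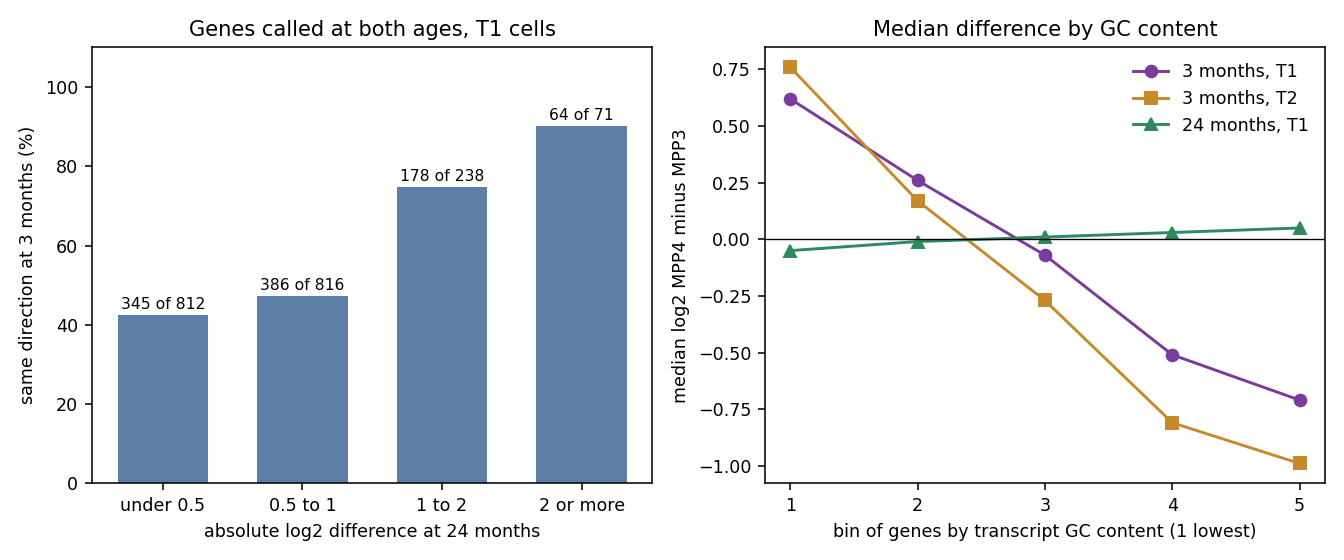
Left, share of genes called at both ages in T1 cells that have the same direction at 3 months (y axis, percent), by the absolute log2 difference at 24 months (x axis), with the numbers on the bars, which rise from 345 of 812 to 64 of 71. Right, median log2 difference of MPP4 minus MPP3 (y axis) in 5 bins of genes by GC content (x axis), which falls from 0.62 to -0.71 in T1 cells of 3 months and stays between -0.05 and 0.05 at 24 months.

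Between T1 and T2 cells of 3 months the difference of MPP4 and MPP3 differed for 4307 genes (37.6%), 1939 with a larger and 2368 with a smaller value in T1. In simulated data this test made more false calls than its threshold allows, so the count may be too high. Without rescaling it was 7751, of which 6899 were larger and 852 smaller, with a median of all genes of log2 0.84. For the 6 with the smallest adjusted p the value of MPP4 minus MPP3 was larger in T2 than in T1 cells, with and without rescaling. Cd52, a surface glycoprotein of lymphocytes, was at 465, 454 and 446 TPM in MPP4 and 323, 292 and 307 in MPP3 of T1 cells, and at 1171, 1168 and 1187 and 107, 109 and 103 in T2 cells (difference of differences log2 -3.90, SE 0.12, adjusted p = 9.55e-13). Its higher level in T1 cells of MPP4 turned to log2 -0.39 with the trend on GC content and length removed. Ifi27l2a, B2m, Dynll1, Fcer1g and Wfdc17 had differences of log2 -4.15, -2.15, -2.47, -2.75 and -3.55. Fcer1g, an adaptor of immune receptors, stood at 137, 144 and 137 TPM in MPP4 and 142, 147 and 141 in MPP3 of T1 cells (log2 0.18). That small difference lost its call without any 1 of 5 libraries when each table gave its own spread, with the replicate block (adjusted p = 0.0832) and with all 30 libraries (0.318), and turned to -0.81 with the trend removed and -0.042 without rescaling.

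Markers of other bone marrow cells were read beside these results. The 23 macrophage genes summed to 321 to 373 TPM in MPP4 and to 1370 to 1510 in MPP3 of 3 months, against 191 to 228 and 277 to 328 at 24 months. Of 17 tested 13 were lower in MPP4 and 0 higher by limma (0 higher also at an unadjusted p under 0.05). The list did not keep this direction at 24 months, when 4 of 11 were higher and 2 lower, with a median of log2 -0.15. At both ages 2 were lower, and 3 changed direction. Adgre1, which encodes the macrophage mark F4/80, was lower at both ages (log2 -2.37 and -3.01), and Apoe, a lipid carrier of macrophages and stroma, as well (23.6, 22.7 and 27.6 TPM in MPP4 and 315, 319.7 and 278 in MPP3; log2 -3.36 and -3.01). Marco, Mrc1, Siglec1 and Cd5l, which define resident macrophages, stayed below the filter. The 17 stroma and endothelium genes summed to 72.2 to 74.0 TPM in MPP4 and to 393 to 437 in MPP3, and Col1a1, Cxcl12, Cdh5 and Lepr, which define those cells, were below the filter. The part of such cells in the differences was not tested.

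Other genes called at both ages with no overlap of libraries complete the account. Cd33, a sialic acid receptor, was higher in MPP4, at 9.11, 7.46 and 8.52 TPM against 1.39, 0.953 and 1.23 (log2 2.25 and 2.13). Lower in MPP4 were Serpine2, a protease inhibitor, at 1.04, 1.46 and 0.77 TPM against 35, 29 and 42.4 (log2 -3.95 and -4.30), and Dmkn, a secreted protein of skin, at 6.31, 12.7 and 7.24 against 97.2, 103 and 116 (log2 -3.29 and -4.63). Dmkn was higher in both 24-month groups, at 32.9, 37.7 and 40.3 TPM in MPP4 and 894, 934 and 929 in MPP3. It had been picked in an earlier reading of these data as a mark of T1 cells, and it is given as a description.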

How the data were processed

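Total RNA of sorted MPP3 and MPP4 cells was amplified with a low-input cDNA kit, per the labels' protocols. The authors deposited TPM per gene, and HISAT2, StringTie, featureCounts, DESeq2 and mm10 are named in the submitters' processing notes, without saying which tool gave the TPM. Every library has the same total, so its read depth is unknown. Here the 6 columns were rescaled by median ratio (factors 0.927 to 0.937 for MPP4, 1.05 to 1.111 for MPP3), taken as log2(TPM + 1) for genes at 1 TPM or more in at least 3 libraries, and fitted with limma 3.58.1 in R 4.3.3 (trend, robust). Fold changes are on that scale, which understates low genes. Adjusted p is Benjamini-Hochberg over all genes tested, called under 0.05. The X and Y genes (385 above the filter) were left out, and 26 with no chromosome were kept.

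Other comparisons were fitted alike in their own libraries, and differences of differences as interaction contrasts over 12 libraries. Each test was tried on simulated data, where that of the difference between T1 and T2 made more false calls than its threshold allows. Members, lists and settings were chosen with earlier results of these data known, and the list of unexpected T1 marks came from those results. The naming rule took Bcl11a, the gate markers, the 15 highest and 15 lowest genes without overlap and with a mean of at least 5 TPM, 12 in each direction called at both ages, and the 6 smallest adjusted p of each difference of differences; other names are members of the lists. Some genes that the rule names are not reported here. GENCODE vM21 gave positions, GC content and length, and RefSeq gave promoters. Alternatives were a pseudocount of 0.1, no filter, no rescaling, all 30 libraries with table weights, the spread of each table alone, a replicate block, X and Y kept, GC content and length, and each library left out. Same-numbered libraries deviated with r of -0.045, 0.038 and -0.03, so the numbers do not pair them.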

Additional observations from a re-analysis of the deposited data

Results flagged for a closer look

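The difference of MPP4 and MPP3 differed between 3 and 24 months for 8147 genes and between T1 and T2 for 4307 genes, by limma's interaction test at an adjusted p under 0.05. Between the ages the difference of differences was log2 -6.04 for Psap (adjusted p = 9.34e-14), 5.39 for Nsmce4a, 4.32 for Ppp2ca, 4.01 for Ost4, 3.90 for Rac1 and 3.57 for Ccl4. Between T1 and T2 it was log2 -3.90 for Cd52 (adjusted p = 9.55e-13), -4.15 for Ifi27l2a, -3.55 for Wfdc17, -2.75 for Fcer1g, -2.47 for Dynll1 and -2.15 for B2m. Y-linked genes, left out of the tests, summed to a median of 76.6 TPM in the MPP3 libraries of 3 months and to 0 in those of MPP4, and their part in the differences was not tested. At 24 months these genes summed to 0.18 TPM or less in every T1 library of both cell types. Groups of 3 are too small for a test of a single library that lies apart.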

How the results depend on the processing

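Counts of called genes at 3 months in T1 cells ran from 8276 (trend on GC content and length removed) to 9175 (X and Y genes kept), and from 8411 to 8771 with 1 library left out, against 8895. The replicate block gave 8811 and changed no count by over 1.5 times (3071 at 24 months). Without rescaling, 2270 genes were higher in MPP4 among T2 cells, 7751 differed between T1 and T2 (6899 larger and 852 smaller in T1), and 589 were called in opposite directions in T1 and T2. With 1 library left out, the 24-month counts ran from 1603 to 2546 (820 to 1384 higher, 783 to 1162 lower), and genes in opposite directions at the 2 ages from 532 to 1016; the lowest were without replicate 3 of MPP3. Without replicate 1 of MPP4, 853 were higher and 571 opposite. Removing the trend on GC content and length turned Bcl11a (log2 -0.46), Cd52 (-0.39), Fcer1g (-0.81), Il7r (-0.43), Tcf3 (0.23) and Tcf4 (-0.62) at 3 months, and Vpreb3 in T2 cells (-0.28), an alternative chosen after seeing the data for all but the 3-month T1 comparison. Without rescaling Fcer1g turned to -0.042, Bcl11a in T2 cells to -0.26 and its difference between T1 and T2 to 0.068. The cause was not tested. Depth is unknown, so values near 1 TPM are the least certain.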
